A study of Mus musculus with 2 samples.

Results

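The 6 genes described here are Dlx1, Dlx2, Dlx5, Dlx6, the antisense RNA Dlx6os1 and Gsx2, taken by symbol from the 33938 genes of the count tables. They were measured by single-nucleus RNA sequencing of dissected mouse embryonic neocortex, in 1 library with the genotype label MEN1-NCKO (NCKO) and 1 with the label MEN1-F/F (F/F). Each library was a 10x Genomics 3' version 3 preparation of nuclear RNA. Neither the labels nor the protocols state the embryos' age, how many were pooled, what drives any recombination or which part of Men1 is affected. Because each label has a single library, genotypes are set side by side without a test, and every interval below is a 95% interval that covers counting error only.

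The Dlx genes encode homeodomain transcription factors of the ventral forebrain. They lie as oppositely oriented pairs and are switched on in progenitors of the ganglionic eminences, the embryonic source of striatal projection neurons and of the GABAergic interneurons that migrate into the cortex. Dlx1 and Dlx2 come on first, in dividing and newly postmitotic cells, and Dlx5 and Dlx6 follow in later cells. Gsx2 acts upstream of Dlx genes in progenitors of the lateral and caudal eminences, and Dlx6os1, also called Evf2, is a long RNA made from the Dlx5/Dlx6 locus.

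In GENCODE vM21 (GRCm38), Dlx1 lies at chr2:71528113-71533981 on the plus strand and Dlx2 at chr2:71543408-71546754 on the minus strand, 9426 bases apart. Dlx6 lies at chr6:6863334-6868568 on the plus strand and Dlx5 at chr6:6877805-6882085 on the minus strand, 9236 bases apart. Dlx6os1, at chr6:6820189-6871592 on the minus strand, spans the whole of Dlx6, and the antisense gene Dlx1as, at chr2:71516454-71537891 on the minus strand, spans the whole of Dlx1. Gsx2 lies at chr5:75075601-75077893 on the plus strand. The labels do not say whether counting used strand, so UMIs (unique molecular identifiers, 1 per captured RNA molecule) of Dlx6 and Dlx6os1, and of Dlx1 and Dlx1as, cannot be told apart with certainty.

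RefSeq start sites (GRCm38.p6) were held for 4 of the 6 genes, and the 250 bases before the start are printed for 3 of them, since they show how unlike the Dlx6os1 starts are to those of Dlx2 and Gsx2. Capitals mark TAATTA, a palindromic homeodomain core, searched on both strands. The first 2 are the Dlx6os1 windows at chr6:6869534-6869783 and chr6:6861684-6861933, both on the minus strand, the first of them within a Dlx6os1 exon of GENCODE. The others are Dlx2 at chr2:71546755-71547004 on the minus strand and Gsx2 at chr5:75075351-75075600 on the plus strand.
Dlx6os1, first window: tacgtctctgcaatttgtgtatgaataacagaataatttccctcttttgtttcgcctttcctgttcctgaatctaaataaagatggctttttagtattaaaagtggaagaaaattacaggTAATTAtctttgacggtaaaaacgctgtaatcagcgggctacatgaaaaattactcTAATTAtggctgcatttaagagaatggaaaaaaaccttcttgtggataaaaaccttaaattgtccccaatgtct
Dlx6os1, second window: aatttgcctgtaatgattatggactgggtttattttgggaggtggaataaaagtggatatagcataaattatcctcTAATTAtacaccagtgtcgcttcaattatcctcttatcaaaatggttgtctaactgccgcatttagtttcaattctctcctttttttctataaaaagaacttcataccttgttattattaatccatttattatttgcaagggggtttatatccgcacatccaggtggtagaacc
Dlx2: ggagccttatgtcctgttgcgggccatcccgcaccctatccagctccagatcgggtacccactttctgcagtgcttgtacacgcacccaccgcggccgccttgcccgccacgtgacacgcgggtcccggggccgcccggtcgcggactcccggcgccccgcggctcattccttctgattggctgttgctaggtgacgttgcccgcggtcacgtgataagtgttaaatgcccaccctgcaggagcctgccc
Gsx2: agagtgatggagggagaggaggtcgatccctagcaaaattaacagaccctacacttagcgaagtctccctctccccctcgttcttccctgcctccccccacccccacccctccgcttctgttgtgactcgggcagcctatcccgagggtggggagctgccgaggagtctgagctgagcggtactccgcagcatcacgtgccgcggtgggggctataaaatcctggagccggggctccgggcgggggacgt

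The first Dlx6os1 window held 2 copies of TAATTA, whose first bases lie 130 and 74 bases before the start, and the second held 1, at 174 bases. Dlx2, Gsx2 and the unprinted window of Dlx1 held 0. The motif occurred in 4.84% of 32851 RefSeq windows of the same length. The G and C content was 33.2% and 34.0% in the Dlx6os1 windows, against 66.4% for Dlx2, 63.6% for Gsx2 and a median of 52.4% over all windows. CG dinucleotides numbered 5 and 3 for Dlx6os1, 24 for Dlx2 and 16 for Gsx2, with a median of 6 over all windows. The 4.84% was not matched for G and C content, so it does not show how common the motif is in windows as low as those of Dlx6os1. A match to these letters is a description of the sequence.

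After filtering, the NCKO library held 9807 nuclei with 41301122 UMIs and the F/F library 6130 nuclei with 26884758 UMIs, with medians of 3578 and 3671 UMIs per nucleus. The libraries shared 15 barcodes. Nuclei were clustered without the 6 genes and named from markers that hold none of them, so the levels below were not set by the naming. In all, 6 GABAergic classes were found (4493 nuclei, 28.2% of the NCKO and 28.2% of the F/F library), and each is called "-like" since it rests on markers alone. Eminence progenitor-like and striatal-like nuclei were present although the label names neocortex. Men1 had 13.7 CPM (UMIs of the gene scaled by all UMIs of the library or class) in the NCKO library and 10.5 CPM in the F/F library, a ratio of 1.31 (1.13 to 1.51). A 3' count outside a deleted part does not check the genotype, and the deleted part is unknown here. Fewer cells of a type and less RNA per cell cannot be told apart in the sums over whole libraries.

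Most UMIs of the Dlx genes lay in the GABAergic classes, which held 83.6% of the 1602 Dlx1 UMIs, 80.3% of the 524 Dlx2 UMIs, 81.5% of the 410 Dlx5 UMIs, 90.8% of the 1240 Dlx6 UMIs and 89.7% of the 18039 Dlx6os1 UMIs. In excitatory neuron-like nuclei, which should lack these genes and serve as the background here, Dlx1 stood at 2.95 CPM in the NCKO library and 3.09 CPM in the F/F library. Dlx6os1 stood there at 21.5 and 17.1 CPM, in the same order, with 349 UMIs in 178 of 3732 NCKO nuclei and 204 UMIs in 124 of 2656 F/F nuclei. Free RNA, doublets left after filtering and misassigned nuclei cannot be told apart in this background. After each nucleus was thinned to 1000 UMIs, 1.52% of 6380 excitatory-like nuclei had a Dlx6os1 UMI, against 92.1% of CGE-derived interneuron-like nuclei. Without thinning the CGE-derived-like share was 99.2%, and the excitatory-like share 4.77% in the NCKO and 4.67% in the F/F library.

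Dlx1 and Dlx2, the pair that acts first, were highest in eminence progenitor-like nuclei, a cycling cluster led by Top2a and Lockd, with 96 nuclei in the NCKO and 77 in the F/F library. Dlx1 had 487 CPM there in the NCKO library (143 UMIs) and 402 CPM in the F/F library (83 UMIs). In Tshz1-type GABAergic neuron-like nuclei, marked by Tshz1, Pbx3 and Foxp2, Dlx1 had 203 CPM in the NCKO and 200 CPM in the F/F library. In CGE-derived interneuron-like nuclei (caudal eminence, marked by Adarb2 and Prox1) the values were 225 CPM in the NCKO and 197 CPM in the F/F library, so these classes lay level with each other. MGE-derived interneuron-like nuclei (medial eminence, marked by Lhx6 and Nxph1) had 77.0 CPM of Dlx1 in the NCKO and 89.8 CPM in the F/F library. The striatal-like classes were lowest, with 16 and 28.1 CPM in indirect-pathway neurons (Drd2, Penk) and 9.98 and 6.01 CPM in direct-pathway neurons (Ebf1, Isl1), the NCKO value first. With both libraries summed, the Dlx1 intervals of the Tshz1-type-like (179 to 227 CPM) and CGE-derived-like classes (191 to 239 CPM) overlapped, while those of every other neighbour in this order did not. In the NCKO library alone the indirect-pathway-like (9.89 to 24.4 CPM) and direct-pathway-like intervals (6.63 to 14.4 CPM) overlapped too.

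Dlx2 was also highest in eminence progenitor-like nuclei, at lower counts. It had 157 CPM in eminence progenitor-like nuclei of the NCKO library and 145 CPM in those of the F/F library. The Tshz1-type-like class had 54.0 CPM of Dlx2 in the NCKO and 83.2 CPM in the F/F library, and the CGE-derived-like class 70.2 CPM in the NCKO and 57.2 CPM in the F/F library. In MGE-derived-like nuclei Dlx2 had 21.7 CPM in the NCKO and 27.4 CPM in the F/F library. Dlx2 rested on 23 UMIs in indirect-pathway-like and 13 UMIs in direct-pathway-like nuclei over both libraries, too few for a comparison.

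**Figure D1:**
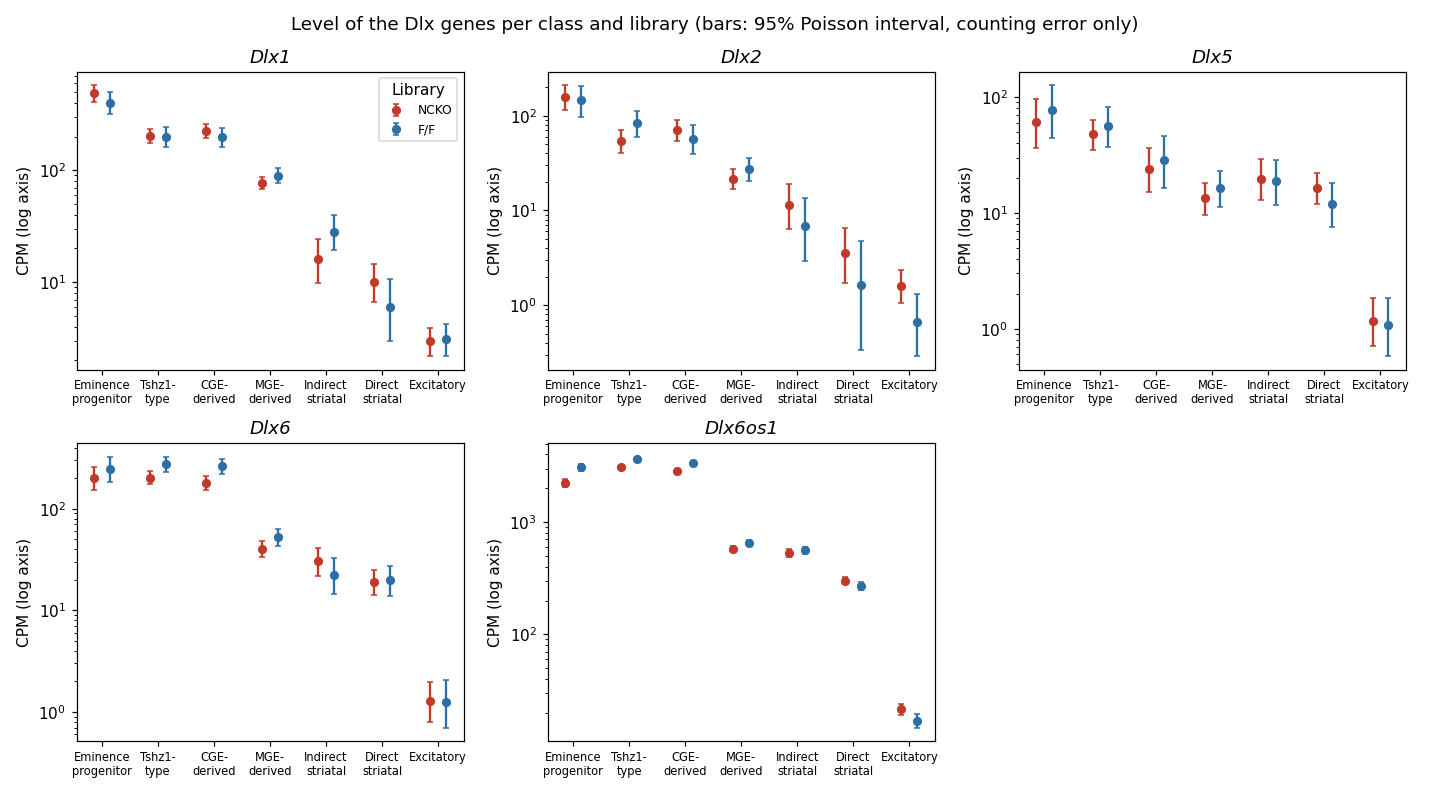
Level of each Dlx gene (CPM, log axis) in 6 GABAergic classes and in excitatory neuron-like nuclei, with NCKO as red points left of F/F as blue points and 95% Poisson intervals as bars. Dlx1 was far lower in striatal-like than in progenitor-like classes, while Dlx6os1 stayed at 270 CPM or more in every GABAergic class of both libraries.

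Dlx5, a later-acting gene, had a flatter profile. It had 61.3 CPM in eminence progenitor-like nuclei of the NCKO library and 77.5 CPM in those of the F/F library. Direct-pathway striatal-like nuclei still had 16.4 CPM in the NCKO and 12 CPM in the F/F library, close to the MGE-derived-like values of 13.4 CPM in the NCKO and 16.5 CPM in the F/F library. Over both libraries the intervals of the MGE-derived-like, indirect-pathway-like and direct-pathway-like classes overlapped for Dlx5 (11.5 to 18.3, 14.2 to 25.6 and 11.4 to 18.6 CPM).

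Dlx6, its neighbour, was level across the progenitor-like, Tshz1-type-like and CGE-derived-like classes. The NCKO values were 201, 202 and 180 CPM in that order, and the F/F values 247, 275 and 263 CPM. MGE-derived-like nuclei had 40.3 CPM of Dlx6 in the NCKO and 52.4 CPM in the F/F library. Indirect-pathway-like nuclei had 30.4 CPM in the NCKO and 22.2 CPM in the F/F library, and direct-pathway-like nuclei had 18.9 CPM in the NCKO and 19.7 CPM in the F/F library.

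Dlx6os1, the long antisense RNA, had its highest class levels in Tshz1-type-like and CGE-derived-like nuclei. It had 3065 CPM in the Tshz1-type-like class of the NCKO library and 3650 CPM in that of the F/F library. The CGE-derived-like class had 2842 CPM in the NCKO and 3367 CPM in the F/F library, and the progenitor-like class 2240 CPM in the NCKO and 3071 CPM in the F/F library. MGE-derived-like nuclei had 581 CPM in the NCKO and 655 CPM in the F/F library, a little above indirect-pathway-like nuclei, with 530 CPM in the NCKO and 559 CPM in the F/F library. The lowest GABAergic level was that of direct-pathway-like nuclei, at 301 CPM in the NCKO and 270 CPM in the F/F library. With both libraries summed, the Dlx6os1 intervals of neighbours in this order did not overlap, but within single libraries some did. In the F/F library the CGE-derived-like interval (3217 to 3523 CPM) overlapped those of the Tshz1-type-like (3482 to 3825 CPM) and progenitor-like classes (2836 to 3319 CPM), and in the NCKO library the MGE-derived-like interval (554 to 608 CPM) overlapped the indirect-pathway-like one (491 to 571 CPM). The Tshz1-type-like level also differed widely within the class: subcluster 10.1, whose 10 leading genes include none of Tshz1, Pbx3 and Foxp2, held 2219 of the 4592 Dlx6os1 UMIs, while subclusters 10.0 and 10.2, which have all of these markers among their leading genes, stood at 2551 and 1071 CPM, against 2583 CPM in progenitor-like nuclei. Subcluster 10.3, with Pbx3 and Foxp2 but not Tshz1 among its leading genes, stood higher, at 4454 CPM (4138 to 4788 CPM).

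Shares of nuclei with a UMI were compared at fixed depth. At 1000 UMIs per nucleus, Dlx1 was detected in 31.1% of progenitor-like, 20.3% of CGE-derived-like, 18.2% of Tshz1-type-like and 8.69% of MGE-derived-like nuclei over both libraries. In indirect-pathway-like nuclei the Dlx1 share was 2.25% and in direct-pathway-like nuclei 0.758%, the second within its interval (0.305 to 1.56%) of the excitatory-like share of 0.376% (0.241 to 0.559%). The Dlx6os1 share in direct-pathway-like nuclei was 21.5% (18.8 to 24.2%), far above its background of 1.52%. Within the Tshz1-type-like class, 82.4% of NCKO and 83.0% of F/F nuclei had a Dlx6os1 UMI, and within the CGE-derived-like class 91.0% of NCKO and 93.8% of F/F nuclei. This runs against the CPM, which were higher in the Tshz1-type-like class, so no order of these classes is read from the shares.

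Gsx2, the upstream progenitor factor, was nearly absent at this depth, with 7 UMIs in the NCKO and 10 in the F/F library. Of these 17 UMIs, 5 were in eminence progenitor-like and 6 in oligodendrocyte precursor-like nuclei. The parent cluster of cycling nuclei, from which the eminence progenitor-like nuclei were split, held 11. These 11 include the 5 of eminence progenitor-like nuclei and 3 of those in oligodendrocyte precursor-like nuclei. Tshz1-type-like, CGE-derived-like, MGE-derived-like and indirect-pathway-like nuclei had 0 Gsx2 UMIs. Its close relative Gsx1 had 8 UMIs in the NCKO and 1 in the F/F library. The ratio of Gsx2 between the libraries, 0.456 (0.147 to 1.33), is not read further.

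The balance between the paired loci differed by class. Dlx1 and Dlx2 made up 71.1% of the UMIs of the 4 coding Dlx genes in progenitor-like nuclei of the NCKO library (65.2 to 76.4%) and 62.8% in those of the F/F library (55.3 to 69.9%). In MGE-derived-like nuclei the share was 64.8% (60.3 to 69.1%) in the NCKO and 63.0% (57.9 to 67.9%) in the F/F library. Direct-pathway-like nuclei stood at the other end, with 27.7% (20.4 to 36.0%) in the NCKO and 19.4% (11.1 to 30.5%) in the F/F library, so the intervals of the MGE-derived-like and direct-pathway-like classes did not overlap in either library. Tshz1-type-like nuclei had 50.7% (46.1 to 55.4%) in the NCKO and 46.1% (40.3 to 52.0%) in the F/F library. In CGE-derived-like nuclei the share was 59.1% (54.5 to 63.7%) in the NCKO and 46.6% (40.9 to 52.3%) in the F/F library, and these intervals did not overlap. Its subclusters differed in the share and in their number of nuclei: subcluster 14.2, which held 17.1% of the class's nuclei in the NCKO and 39.9% in the F/F library, had a share of 40.9% in the NCKO and 45.1% in the F/F library, while subcluster 14.1 had 61.6% (53.9 to 68.9%) in the NCKO and 39.5% (29.2 to 50.7%) in the F/F library. In the other subcluster of this class the intervals overlapped, at 65.1% (58.0 to 71.8%) in the NCKO and 57.3% (45.4 to 68.7%) in the F/F library. UMIs of different genes are compared here only as a share that moves between classes, since the share of a gene's RNA that is counted differs by gene.

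**Figure D2:**
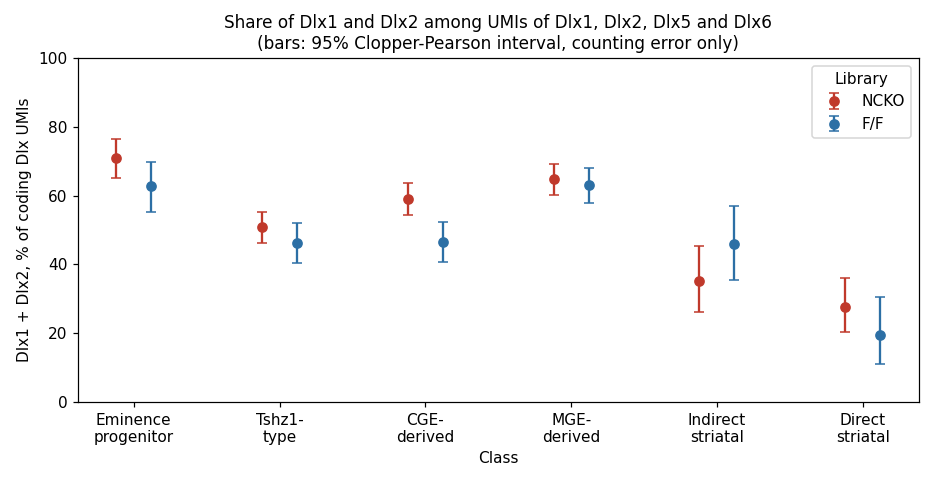
Share of Dlx1 and Dlx2 among the UMIs of Dlx1, Dlx2, Dlx5 and Dlx6 (percent) per GABAergic class, NCKO in red left of F/F in blue, with 95% Clopper-Pearson intervals. The share was over 60% in progenitor-like and MGE-derived-like nuclei of both libraries and under 30% in direct-pathway-like nuclei.

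The number of UMIs of one gene per UMI of its neighbour was compared within each locus. Dlx1 had 2.35 to 3.42 UMIs per Dlx2 UMI across the 6 classes with both libraries summed. The lowest of these, in indirect-pathway-like nuclei, combines 1.40 (0.688 to 2.92) in the NCKO and 4.13 (1.87 to 10.3) in the F/F library, on few Dlx2 UMIs. Dlx6 had 8.18 UMIs per Dlx5 UMI in CGE-derived-like nuclei, 4.49 in Tshz1-type-like, 3.23 in progenitor-like, 3.08 in MGE-derived-like, 1.38 in indirect-pathway-like and 1.31 in direct-pathway-like nuclei. Dlx6os1 had 8.53 to 12.8 UMIs per UMI of Dlx5 and Dlx6 together across the 6 classes. Dlx1as, the antisense RNA over Dlx1, was highest in progenitor-like nuclei, at 575 CPM in the NCKO and 668 CPM in the F/F library, and low in the striatal-like classes, like Dlx1. In MGE-derived-like nuclei it had 302 CPM in the NCKO and 278 CPM in the F/F library, and in Tshz1-type-like nuclei 227 CPM in the NCKO and 291 CPM in the F/F library. Dlx3 had 1 UMI and Dlx4 2 UMIs, all in the NCKO library, and Dlx4os had 0.

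Dlx6os1 differed more between finer clusters of a class than between the libraries. Each GABAergic cluster was divided once more, again without the 6 genes. In the Tshz1-type-like class, subcluster 10.1, led by St18 and with Sp8 and Synpr among its leading genes, had 5803 CPM of Dlx6os1 and 371 CPM of Dlx1 over both libraries, the highest Dlx6os1 level of all subclusters. Subcluster 10.2 of the same class, with Tshz1 and Grm8 among its leading genes, had 1071 CPM of Dlx6os1 and 26.8 CPM of Dlx1. In the CGE-derived-like class, Dlx6os1 stood at 4726 CPM in subcluster 14.2 and 2344 CPM in the subcluster with Adarb2 and Igf1 among its leading genes, and Dlx6 at 417 and 130 CPM in the same order. In the MGE-derived-like class, subcluster 5.2, with Sst and Lhx6 among its leading genes, had 1169 CPM of Dlx6os1, and subcluster 15.3 had 267 CPM. Subcluster 15.3 came almost wholly from 1 library, with 48 NCKO and 6 F/F nuclei and 90 and 3 Dlx6os1 UMIs. Indirect-pathway-like subcluster 7.2, with Six3 among its leading genes, had 56.1 CPM of Dlx1, against 7.45 to 19.0 CPM in the other indirect-pathway-like subclusters.

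**Figure D3:**
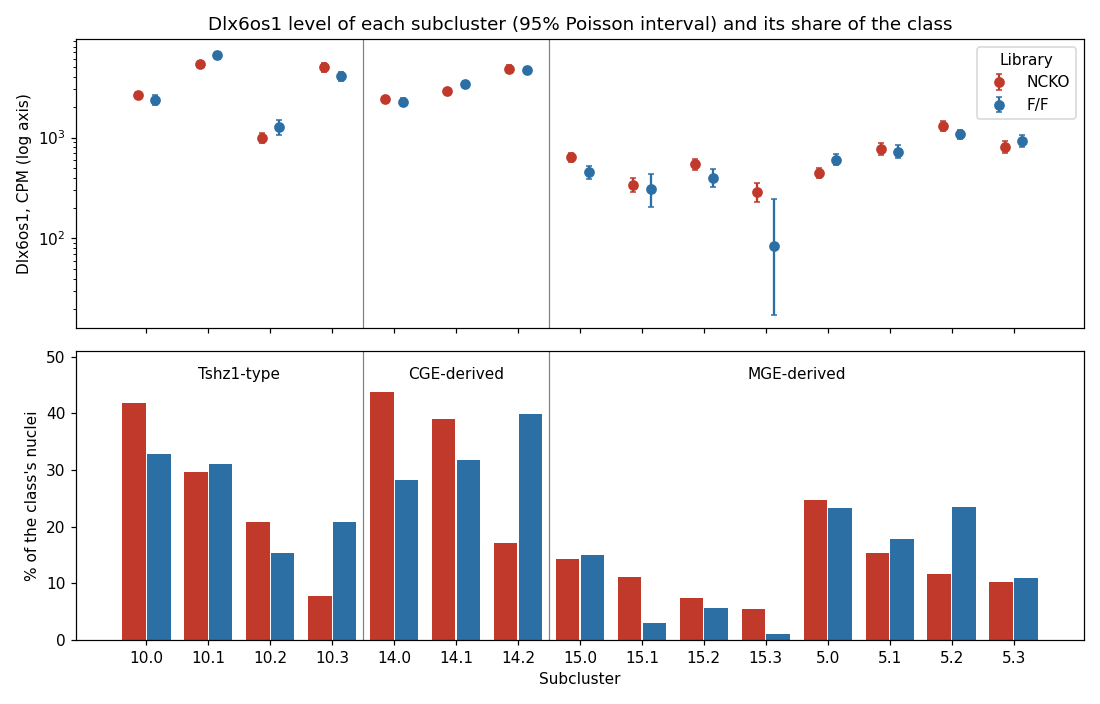
Upper panel, Dlx6os1 level (CPM, log axis) of each subcluster of the Tshz1-type-like, CGE-derived-like and MGE-derived-like classes with 95% Poisson intervals; lower panel, percent of the class's nuclei in that subcluster; NCKO in red left of F/F in blue. Subclusters 10.3, 14.2 and 5.2, each among the higher ones of its class for Dlx6os1, held a smaller share of NCKO than of F/F nuclei. The shares of subcluster 10.1, the highest for Dlx6os1, lay close together, at 29.7% of NCKO and 31.1% of F/F nuclei of its class.

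Between the genotypes, the whole libraries differed little. Dlx1 had 24.0 CPM in the NCKO and 22.7 CPM in the F/F library, a ratio of 1.06 (0.959 to 1.18). Dlx2 had 7.85 CPM in the NCKO and 7.44 CPM in the F/F library (ratio 1.06, 0.881 to 1.26), and Dlx5 had 5.81 CPM in the NCKO and 6.32 CPM in the F/F library (ratio 0.919, 0.752 to 1.13). Dlx6 was lower in the NCKO library, at 16.9 CPM, against 20.2 CPM in the F/F library, a ratio of 0.836 (0.746 to 0.937). Dlx6os1 had 256 CPM in the NCKO and 278 CPM in the F/F library, a ratio of 0.922 (0.895 to 0.950). Both of these intervals leave out 1 for counting error, and the spread between animals is unknown. None of the 5 was past 1.5-fold, as 1.19% of the 17178 genes measured over all nuclei were in either direction.

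Within the 5 classes with at least 100 nuclei per library, 1 of the 20 combinations of Dlx gene and class with at least 50 UMIs was past 1.5-fold on the log2 (CPM + 5) scale. It was Dlx1 in indirect-pathway-like nuclei, lower by a log2 ratio of -0.66, on 21 UMIs in the NCKO and 33 UMIs in the F/F library, and its ratio of 0.568 had an interval of 0.312 to 1.01. Without doublet removal it fell inside the limit, at a log2 ratio of -0.55. In that class 8.16% of 6994 genes were past 1.5-fold in either direction. The corresponding background was 11.7% in Tshz1-type-like, 11.1% in CGE-derived-like, 6.61% in MGE-derived-like and 6.72% in direct-pathway-like nuclei, where 0 Dlx genes were past it. Dlx2 in Tshz1-type-like nuclei, at a log2 ratio of -0.58 and a ratio of 0.649 (0.420 to 1.01), lay just inside the limit. With each nucleus thinned to 1000 UMIs it was past it, at 49.4 CPM in the NCKO and 108 CPM in the F/F library (21 and 23 UMIs), a ratio of 0.455 (0.240 to 0.861).

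Dlx6 and Dlx6os1 were lower in the NCKO library in 3 interneuron or Tshz1-type-like classes. The Dlx6 ratio was 0.736 (0.586 to 0.927) in Tshz1-type-like, 0.685 (0.545 to 0.862) in CGE-derived-like and 0.769 (0.589 to 1.01) in MGE-derived-like nuclei. The Dlx6os1 ratio was 0.840 (0.791 to 0.892), 0.844 (0.795 to 0.896) and 0.887 (0.825 to 0.952) in the same classes. Dlx6os1 in the striatal-like classes had ratios of 0.948 (0.851 to 1.06, indirect) and 1.12 (0.997 to 1.25, direct). In progenitor-like nuclei, which fell under the 100-nucleus minimum, the Dlx6os1 ratio was 0.730 (0.653 to 0.815).

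The make-up of the 3 interneuron or Tshz1-type-like classes also differed between the libraries. Summed CPM of 4 excitatory marker genes, none of them at 0, were 107 in the NCKO and 68.6 in the F/F library in Tshz1-type-like nuclei, 91.0 and 84.0 in CGE-derived-like nuclei, and 100 and 49.9 in MGE-derived-like nuclei, the NCKO value first, and their part in the ratios was not tested. Subcluster 14.2, high in Dlx6os1 and Dlx6, held 17.1% of CGE-derived-like nuclei in the NCKO and 39.9% in the F/F library, and within it the Dlx6os1 ratio was 1.03 (0.919 to 1.15). Subcluster 10.3 held 7.81% of Tshz1-type-like nuclei in the NCKO and 20.7% in the F/F library, while subcluster 10.1, highest in Dlx6os1, held 29.7% and 31.1%. Subcluster 5.2 held 11.7% of MGE-derived-like nuclei in the NCKO and 23.4% in the F/F library. Subclusters 15.1 and 15.3, low in Dlx6os1, went the other way. Subcluster 15.1 held 11.1% of MGE-derived-like nuclei in the NCKO and 2.90% in the F/F library, and subcluster 15.3 held 5.38% and 1.09%. Their F/F shares rest on 16 and 6 nuclei. With the subclusters of NCKO weighted as in F/F, the CGE-derived-like class had 246 CPM of Dlx6 in the NCKO and 263 CPM in the F/F library, a ratio of 0.936, and the Dlx6os1 ratio was 0.982. In Tshz1-type-like nuclei the weighted Dlx6 ratio was 0.848, and in MGE-derived-like nuclei 0.970. Weighted in the same way, the Dlx6os1 ratio was 0.959 in Tshz1-type-like and 1.08 in MGE-derived-like nuclei, the second on the other side of 1 from the unweighted value. Individual subclusters differed in both directions: the Dlx6os1 ratio was 0.811 (0.744 to 0.883) in subcluster 10.1 and 1.22 (1.06 to 1.42) in subcluster 10.3. The Dlx6 ratio was 0.720 (0.523 to 0.996) in subcluster 10.1. In the MGE-derived-like class the Dlx6os1 ratio was 1.21 (1.03 to 1.42) in subcluster 5.2. It was 1.40 (1.17 to 1.69) in the subcluster with Grin3a among its leading genes and 1.355 (1.065 to 1.736) in that with Spock3. Subcluster 15.3 was also above 1, on 90 and 3 UMIs. The subcluster with Kcnc2 among its leading genes had 0.733 (0.617 to 0.872), and the other intervals held 1. The lower MGE-derived-like total was thus not shared by most of its subclusters. The progenitor-like class is a single subcluster, so weighting leaves its ratio as it was.

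**Figure D4:**
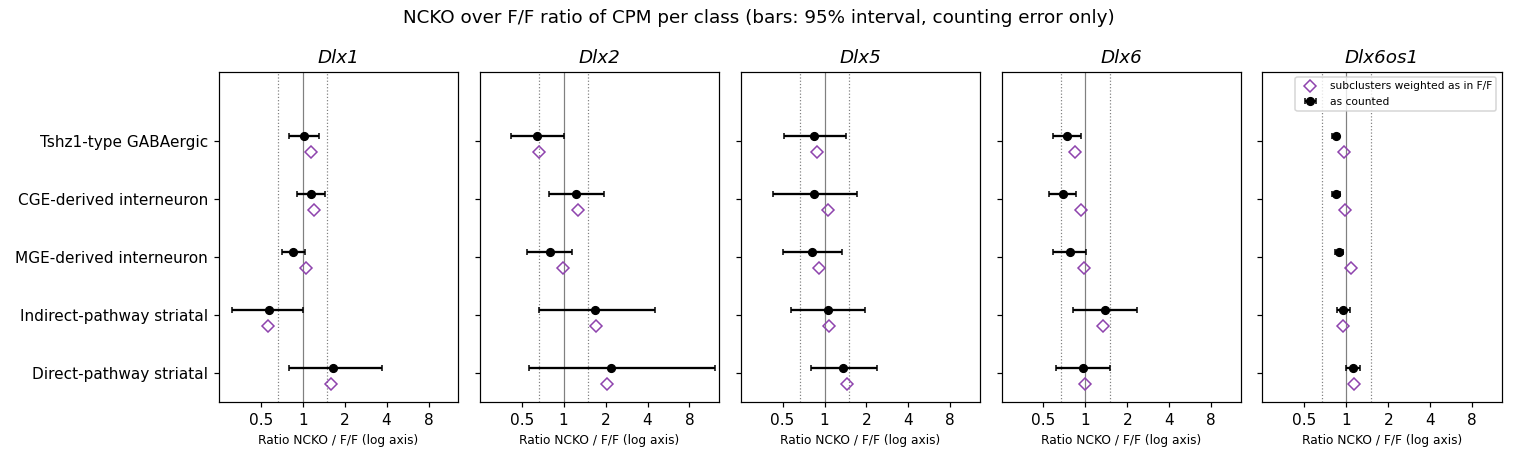
Ratio of NCKO over F/F (log axis) for each Dlx gene in 5 GABAergic classes, as counted (black points, 95% intervals for counting error) and with subclusters weighted as in F/F (open diamonds); dotted lines mark 1.5-fold in either direction. The Dlx6 and Dlx6os1 points of the upper 3 classes lie left of 1, and their diamonds lie nearer to 1 or, for Dlx6os1 in MGE-derived-like nuclei, right of it.

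Detection of the paired genes in the same nucleus was rare, and over all GABAergic nuclei it exceeded the product of the single shares. Pooling classes that differ in the level of both genes raises this figure by itself. Dlx1 ran from 452 CPM in progenitor-like to 8.41 CPM in direct-pathway-like nuclei. The excess over all GABAergic nuclei is therefore not read as a tie within nuclei. Pairs across loci are not set beside these values, so no excess is read as particular to the paired genes. At 1000 UMIs per nucleus, 46 of 4428 GABAergic nuclei had UMIs of both Dlx1 and Dlx2, 2.68 times the product of the 2 single shares (1.96 to 3.57, with the product taken as fixed). Within classes the figure was 1.39 (0.753 to 2.31) in progenitor-like, 1.30 (0.624 to 2.36) in CGE-derived-like and 1.19 (0.437 to 2.58) in MGE-derived-like nuclei, and 1.87 (1.05 to 3.06) in Tshz1-type-like nuclei, where 15 nuclei had both. The Tshz1-type-like value has the same limit, since Dlx1 ran from 26.8 CPM in subcluster 10.2 to 371 CPM in subcluster 10.1. The striatal-like classes had 1 such nucleus each, too few to read. Dlx6os1 and Dlx6 were found together in 323 GABAergic nuclei, 1.70 times the product (1.52 to 1.88), and in 1.16 times (0.980 to 1.36) within Tshz1-type-like and 1.06 times (0.881 to 1.27) within CGE-derived-like nuclei. In progenitor-like nuclei this pair stood at 1.55 (1.12 to 2.07). That class was not divided further, and without thinning 61.5% of its NCKO and 70.1% of its F/F nuclei had a Dlx6os1 UMI. Whether it mixes nuclei of differing levels was not tested, so 1.55 is not read as a tie within nuclei. Dlx5 and Dlx6 were found together in 19 nuclei in all. At this depth 79.5% of NCKO and 78.9% of F/F GABAergic nuclei had no UMI of any coding Dlx gene, so absence in 1 nucleus is not read as absence of expression.

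**Figure D5:**
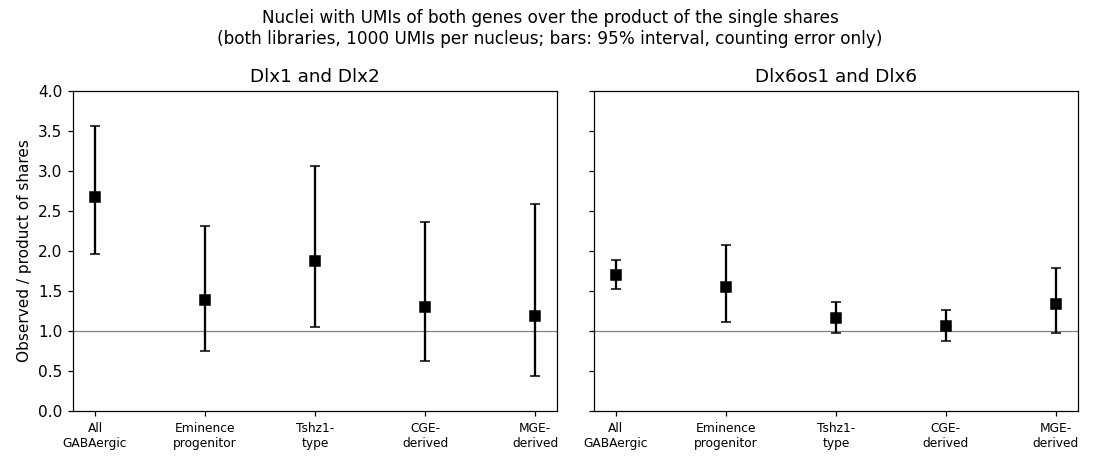
Nuclei with UMIs of both genes divided by the product of the single shares, for Dlx1 with Dlx2 and for Dlx6os1 with Dlx6, both libraries together at 1000 UMIs per nucleus, with 95% intervals. The value over all GABAergic nuclei (2.68 and 1.70) lies above those of the 4 classes drawn; the striatal-like classes are not drawn.

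Over 28 clusters, whose points share libraries and depth, the non-member gene most like Dlx1 was Dlx1as (Pearson r = 0.93 of log2 (CPM + 5)), and Sox1ot (0.86) was also among the 3 most alike. Dlx6os1 was most like Gad1 (0.95) and Gad2 (0.93), the enzymes that make GABA, and the synaptic adhesion gene Nrxn3 (0.91). Dlx5 and Dlx6 were also most like Gad1 (0.91 each). Dlx2 was most like Dlx1as (0.91), Ctnnbl1 and Metap1d (both 0.86). Among the 6 genes themselves, Dlx1 with Dlx2 had r = 0.96. The Gsx2 profile rests on 17 UMIs and was most like the mitotic gene Nusap1 (0.91).

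Of the listed genes around the Dlx genes, upstream factors were mostly too low to measure within classes. Of 14 Dlx-linked factors, 7 had at least 50 UMIs in Tshz1-type-like nuclei, and 2 were higher and 2 lower past 1.5-fold, against 7.5% of 4949 genes higher and 4.18% lower in that class, with a median log2 ratio of -0.18 against 0.03 over all of them. Among the lower was Prox1, a marker of CGE-derived interneurons, at 46.5 CPM in the NCKO and 108 CPM in the F/F library. The higher ones were Sp8, at 71.3 CPM in the NCKO and 31.2 CPM in the F/F library, and Etv1, at 258 CPM in the NCKO and 148 CPM in the F/F library. Sp8 was on the marker lists of both the CGE-derived and the Tshz1-type class, and Etv1 on that of the Tshz1-type class. In Tshz1-type-like nuclei the 7 CGE-derived markers summed to 7600 CPM in the NCKO and 7170 CPM in the F/F library. The 6 Tshz1-type markers summed to 16930 and 19330 CPM, in the same order. Pax6, on the upstream list, had 111 CPM in Tshz1-type-like nuclei of the NCKO library and 45.8 CPM in those of the F/F library, a ratio of 2.43 (1.52 to 4.05). Of 9 Dlx-linked factors measured in MGE-derived-like nuclei, Pbx3 was past the limit, as were 6.61% of all genes there, at 61.7 CPM in the NCKO and 141 CPM in the F/F library, and the median was -0.24 against 0.01 over 9437 genes. Of 7 measured in CGE-derived-like nuclei, 0 were past it (median -0.17 against 0.01).

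Of all genes measured, 11.7% were past 1.5-fold in Tshz1-type-like, 11.1% in CGE-derived-like, 6.61% in MGE-derived-like and 6.72% in direct-pathway-like nuclei, and single calls among the following lists are not read as results about the lists. The genes for GABA synthesis and transport stayed inside 1.5-fold in the CGE-derived-like, MGE-derived-like and both striatal-like classes. In Tshz1-type-like nuclei the vesicular transporter gene Slc32a1 was lower, at 56.2 CPM in the NCKO and 89.4 CPM in the F/F library, and the other 3 were inside the limit. Of the migration genes, 0 of 6 measured were past 1.5-fold in Tshz1-type-like nuclei, while Nrp2, a semaphorin receptor, was past it in CGE-derived-like nuclei (120 CPM in the NCKO, 75.0 CPM in the F/F library) and in MGE-derived-like nuclei (58.5 CPM in the NCKO, 34.9 CPM in the F/F library). The factors Sox4, Sox11, Meis1 and Tcf4 had median log2 ratios of -0.41 in CGE-derived-like, -0.36 in MGE-derived-like and -0.20 in Tshz1-type-like nuclei, with Sox4 past the limit in the first and last of these. In direct-pathway-like nuclei Meis1 was past it in the other direction, at 281 CPM in the NCKO and 162 CPM in the F/F library. Of 4 oligodendrocyte lineage genes that Dlx1 and Dlx2 are known to hold down, 0 had 50 UMIs in any single GABAergic class. Whether subcluster make-up accounts for these genes was not tested.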

How the data were processed

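The authors deposited raw UMI counts for each gene and nucleus, as whole numbers. The file headers name Cell Ranger 6.1.0, and the submitters' processing notes name build mm10 and Seurat. The sources do not state whether intronic reads were counted. Nuclei with under 500 genes or over 5% mitochondrial UMIs were left out (19 NCKO and 10 F/F nuclei for the first, 0 and 1 for the second), and the highest simulated-doublet scores were removed (924 NCKO and 336 F/F nuclei). Both libraries were clustered together on 2000 variable genes without the 6 genes described (30 components, 20 neighbours, Leiden resolution 1; leidenalg 0.10.2, scikit-learn 1.9.0, scipy 1.17.1, Python 3.11.15). Classes were named from marker lists by a rule settled after the clusters had been seen; it left 20 of 43 clusters unnamed, among them a GABAergic one led by Hpse2. CPM are scaled to the total UMIs of the class; ratios have exact conditional binomial intervals and shares exact Clopper-Pearson intervals. Genes with at least 50 UMIs in a class count as measured. Genes named are the 6, other Dlx and Gsx genes, the listed genes, the 3 most alike and Men1. The genes and lists were chosen with earlier results of these data known. The scripts were checked on simulated counts. A listed gene enters the counts and medians of its list but is not reported here.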

Additional observations from a re-analysis of the deposited data

Results flagged for a closer look

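The Dlx6os1 ratio of NCKO over F/F lay on different sides of 1 in different classes, with intervals for counting error that left out 1. In classes with at least 100 nuclei per library, it was below 1 in Tshz1-type-like (0.840), CGE-derived-like (0.844) and MGE-derived-like nuclei (0.887). It was above 1 in excitatory neuron-like (1.26), oligodendrocyte precursor-like (1.85) and intermediate progenitor-like nuclei (3.77). Such intervals also lay below 1 in unnamed (0.658), Cajal-Retzius-like (0.274), microglia-like (0.343) and eminence progenitor-like nuclei (0.73). In meningeal-like nuclei the interval lay above 1, on 34 UMIs in the NCKO and 1 in the F/F library. Astrocyte-like nuclei had 1.09 (0.828 to 1.44). The 33 F/F UMIs of Cajal-Retzius-like nuclei lay in 2 nuclei. Nuclei outside the GABAergic classes thus lay on both sides. The difference between classes was not tested. With each nucleus thinned to 1000 UMIs, the excitatory neuron-like ratio was 0.994 (0.676 to 1.47), and excitatory-like nuclei serve as the background for this gene. Past 1.5-fold in either direction were 14.8% of the genes measured in oligodendrocyte precursor-like and 17.1% of those in intermediate progenitor-like nuclei. In intermediate progenitor-like nuclei the 60 UMIs of the NCKO library lay in 9 of 108 nuclei and the 24 UMIs of the F/F library in 8 of 167 nuclei. Gad2 moved the same way there, at 81.3 CPM in the NCKO and 28.1 CPM in the F/F library, and its part in the result was not tested. In oligodendrocyte precursor-like nuclei, with 68 Dlx6os1 UMIs in the NCKO and 17 in the F/F library, Gad2 had 53.1 CPM in the NCKO and 66.9 CPM in the F/F library.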

How the results depend on the processing

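No paired analysis was possible because each label has 1 library and no replicate number. For the ratios of NCKO over F/F, 216 of 226 values under other settings moved by less than their counting error. This total includes 29 values each on log2 (CPM + 1) and log2 (CPM + 20), which use the same counts and could hardly move. With subclusters weighted as in F/F, 4 values moved by more and 20 did not. In nuclei chosen by single marker UMIs, 3 moved by more and 6 did not. Dlx2 in Tshz1-type-like nuclei crossed 1.5-fold: its log2 ratio was -0.58, and -1.06 at 1000 UMIs per nucleus, -0.71 at Leiden resolution 2, -0.63 over all deposited barcodes and -0.61 on log2 (CPM + 1). Dlx1 in indirect-pathway-like nuclei, at -0.66, fell inside 1.5-fold without doublet removal (-0.55) and on log2 (CPM + 20) (-0.42), while Dlx6 in CGE-derived-like nuclei passed it without doublet removal (-0.72). At 1000 UMIs per nucleus, Dlx2 in progenitor-like (1.07), Dlx5 in direct-pathway-like (1.05) and Dlx6 in indirect-pathway-like nuclei (1.19) passed it on few UMIs; the cause was not tested. The 10 values that moved by more than their counting error include Dlx6os1 in CGE-derived-like nuclei (log2 ratio -0.24, and -0.03 with subclusters weighted as in F/F, an alternative added after the data were seen) and in MGE-derived-like nuclei (-0.17, and 0.11 weighted or 0.00 in nuclei chosen by single marker UMIs). Dlx6 in CGE-derived-like nuclei had -0.53, and -0.09 when weighted. In progenitor-like nuclei the Dlx6os1 log2 ratio was -0.17 without doublet removal. Shares of nuclei with a UMI rise with depth by construction, to 29.5% of Tshz1-type-like nuclei for Dlx1 without thinning. With Spearman in place of Pearson correlation, Dlx6os1 kept 2 of its 3 most alike genes, Dlx6 kept 1 and the other 4 kept 0. Low counts limit Gsx2, and Dlx2 in striatal-like nuclei.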
